A study of Mus musculus with 3 samples.

Results

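The genes described here are 6 transcription factors that mark or set territories of the embryonic forebrain outside the cerebral cortex: Barhl2, Olig3, Six3, Fezf1, Otx1 and Otx2. They were chosen by name, and each was found by its Ensembl identifier in the feature lists of all 3 libraries, so that they are 6 of the 27040 genes common to those lists. The study profiled single cells of the mouse embryonic brain with 10x Genomics 3′ libraries, from a region spanning the dorsal midline of the pallium in both hemispheres. That midline holds the cortical hem, which makes Cajal-Retzius neurons, and the choroid plexus. Its title names the reuse of the multiciliation gene network in the fate of Cajal-Retzius neurons.

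The knockout was 1 cell suspension pooled from 4 Gmnc-/- embryos at E12.5, made into 1 library. Gmnc encodes a coiled-coil regulator that starts the multiciliation programme. The wild type was 1 suspension that pooled 2 crosses, made into 2 libraries. One cross was PGKCre;Rosa26YFP, with 4 embryos taken at E11.5, and the other was Wnt3aCre;Rosa26tdTomato, with 4 embryos taken at E12.5. PGKCre drives recombination in all tissues, whereas Wnt3aCre acts in the hem and its descendants. All embryos were on the C57BL/6J strain. The 2 wild-type libraries are technical repeats and count as 1 sample, so each genotype has 1 suspension, the differences below have no replicate check, and no p-value is given. Genotype cannot be told apart from stage, from the reporter and Cre alleles, from dissection or from processing, since the knockout held no E11.5 embryos and its file header names a different Cell Ranger version.

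Otx1 and Otx2 are homeobox genes related to fly orthodenticle that specify forebrain and midbrain, and Otx2 is needed to form the choroid plexus. Six3 is a homeobox gene of the rostral forebrain that represses Wnt genes. Fezf1 is a zinc-finger repressor that, with Fezf2, keeps rostral diencephalon from taking a caudal identity. Barhl2, a BarH-like homeobox gene, and Olig3, a basic helix-loop-helix gene, are expressed in the diencephalon around the zona limitans, the organiser that separates thalamus from prethalamus.

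In the GRCm38 genome with the GENCODE vM21 annotation, the 6 genes lie on 6 chromosomes. Barhl2 lies at chr5:106452523-106458166 on the minus strand, Olig3 at chr10:19356533-19358604 on the plus strand and Six3 at chr17:85613608-85629302 on the plus strand. Fezf1 lies at chr6:23245044-23248362, Otx1 at chr11:21994764-22002897 and Otx2 at chr14:48657677-48673819, all on the minus strand. Otx2 overlaps the antisense gene Otx2os1 at chr14:48668708-48870683, and Six3 overlaps Six3os1 at chr17:85600651-85618398. Whether strand was used in counting is not stated by the labels or headers, so reads of those overlaps cannot be assigned to one gene with certainty.

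RefSeq promoter windows of GRCm38.p6, from 250 bases before to 50 bases after a start, were found for 5 of the 6 genes. Those 5 genes have 8 windows between them, and Otx1 was not matched. The 4 windows printed here belong to the 2 genes found together in one knockout cluster, Barhl2 and Olig3, and to the 2 whose levels ran together across clusters, Six3 and Otx2. Each is written 5′ to 3′ on the strand of its gene, and capitals mark a motif match.
Barhl2, chr5:106458117-106458416, minus strand: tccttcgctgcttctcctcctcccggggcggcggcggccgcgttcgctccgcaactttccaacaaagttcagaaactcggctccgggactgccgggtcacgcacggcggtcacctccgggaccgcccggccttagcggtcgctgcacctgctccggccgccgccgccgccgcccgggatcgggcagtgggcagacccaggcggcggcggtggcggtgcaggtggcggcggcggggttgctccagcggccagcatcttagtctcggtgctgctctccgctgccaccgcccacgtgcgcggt
Olig3, chr10:19356289-19356588, plus strand: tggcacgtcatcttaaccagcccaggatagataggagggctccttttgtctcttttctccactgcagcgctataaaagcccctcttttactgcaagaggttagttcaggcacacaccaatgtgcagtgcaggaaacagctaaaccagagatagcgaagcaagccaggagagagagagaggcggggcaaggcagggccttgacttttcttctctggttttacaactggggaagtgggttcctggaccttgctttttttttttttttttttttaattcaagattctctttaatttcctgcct
Six3, chr17:85620584-85620883, plus strand: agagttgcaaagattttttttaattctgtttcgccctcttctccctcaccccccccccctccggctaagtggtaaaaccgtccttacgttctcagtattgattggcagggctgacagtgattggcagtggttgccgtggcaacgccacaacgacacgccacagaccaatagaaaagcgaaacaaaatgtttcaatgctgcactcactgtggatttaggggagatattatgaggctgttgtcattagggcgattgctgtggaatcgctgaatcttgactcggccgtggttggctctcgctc
Otx2, chr14:48665060-48665359, minus strand: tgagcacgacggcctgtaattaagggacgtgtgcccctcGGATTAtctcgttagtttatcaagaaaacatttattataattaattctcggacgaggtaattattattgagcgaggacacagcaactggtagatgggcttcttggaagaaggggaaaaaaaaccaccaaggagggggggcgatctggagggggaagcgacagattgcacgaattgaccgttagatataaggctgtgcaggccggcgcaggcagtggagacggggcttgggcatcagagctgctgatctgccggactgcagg

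The windows were searched on both strands for 4 words, none of which contains another: TAATCC, bound by OTX factors; TAAACG, bound by BARHL factors; TGATAC, bound by Six3 and its relatives; and CATATG, an E-box bound by OLIG factors. Across all 8 windows the single match was GGATTA, the reverse complement of TAATCC, at position 40 of the Otx2 window shown, counted from its first base. Of the 32851 promoter windows of the genome table, 7.06% held TAATCC, 3.17% TAAACG, 5.46% TGATAC and 3.92% CATATG. A match is a description of letters and not a binding site. In base composition the Barhl2 window stood apart, at 73.7% G and C, against a median of 52.7% over all windows; Olig3 had 46%, Six3 50% and the Otx2 window 51%.

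After filters on genes, UMIs and mitochondrial reads and the removal of called doublets, 12884 knockout cells and 8527 and 7479 wild-type cells were used. A UMI (unique molecular identifier) counts 1 captured RNA molecule. The median cell had 8690 UMIs in the knockout and 11646 and 12845 in the wild-type libraries, so a share of cells with a UMI is read beside a level in CPM, the UMIs of a gene over all UMIs of the class or cluster, times 1000000. The wild-type libraries shared 1914 of the deposited cell barcodes, of which 1882 had a UMI total at least 20-fold apart, and 30 remained among the cells used. Gmnc had 45.2 CPM in the knockout and 29.9 and 30.5 CPM in the wild-type libraries, but the labels do not say which part of the gene was deleted, and a 3′ tag outside that part checks nothing. Trp73, a p53-family gene of Cajal-Retzius neurons, had 3 UMIs in the knockout, against 21.9 and 23.5 CPM in the wild-type libraries.

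Cells were clustered into 23 groups, and a cluster was given a cell type only from marker genes. The classes used here are hem progenitor-like (1828 knockout cells, 1604 and 1429 wild-type cells), choroid plexus-like (1581 knockout cells, 1328 and 1134 wild-type cells) and neuron-like (983 knockout cells, 931 and 862 wild-type cells). Clusters 12, 13 and 16 (1051 knockout cells, 572 and 526 wild-type cells) had raised markers of intermediate progenitors, but the 10 leading genes of cluster 12 held 1 Cajal-Retzius marker, Lhx1, and 0 of intermediate progenitors. They are therefore compared by cluster number, and a value over the 3 together describes a sum and not a cell type. Cells of 5 clusters came from one genotype with fewer than 10 cells from the other. Values over all cells and in the choroid plexus and neuron classes include such clusters, and not every such value is marked.

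Over all cells used, the 6 genes fell into 3 tiers. Otx2 and Otx1 were the most abundant, Six3 followed, and Fezf1, Barhl2 and Olig3 were rare. Otx2 had 206 CPM in the knockout and 139 CPM in each wild-type library. Otx1 had 103 CPM in the knockout and 85.2 and 81.4 CPM in the wild-type libraries. Six3 was close in all libraries, with 49.7 CPM in the knockout and 53.5 and 50.5 CPM in the wild type. Fezf1 had 6.96 CPM in the knockout and 12.1 CPM in each wild-type library. Barhl2 had 1.80 CPM in the knockout and 3.40 and 3.99 CPM in the wild type. Olig3 was almost confined to the knockout library, with 211 UMIs or 1.28 CPM there, against 8 and 7 UMIs or 0.0691 and 0.0615 CPM in the wild-type libraries, a ratio of 19.5 with a 95% counting interval of 11.6 to 35.5.

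A gene was called different where the knockout was at least 2-fold apart from each wild-type library in the same direction, on the log2(CPM + 1) scale, and the higher of the groups had 50 or more UMIs and 20 or more CPM. Counting intervals in this text are exact 95% intervals and cover counting error only. Over all cells, 0 of the 6 genes met that rule, 3 of them being abundant enough, where 4.23% of all 6600 abundant genes did (3.12% higher and 1.11% lower). In the hem class 0 of 6 met it, 3 being abundant enough, against 4.89% of all abundant genes (3.88% higher and 1.01% lower). In the choroid plexus class 0 of 6 met it, 4 being abundant enough, against 7.03% (4.29% higher and 2.74% lower). Over clusters 12, 13 and 16 together 1 of 6 met it, Otx2 (higher), against 5.34% (3.35% higher and 1.99% lower). In the neuron class 2 of 6 met it, Barhl2 and Otx2 (both lower), against 10.4% (4.21% higher and 6.2% lower). With so few genes these counts say little more than which genes moved.

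**Figure D1:**
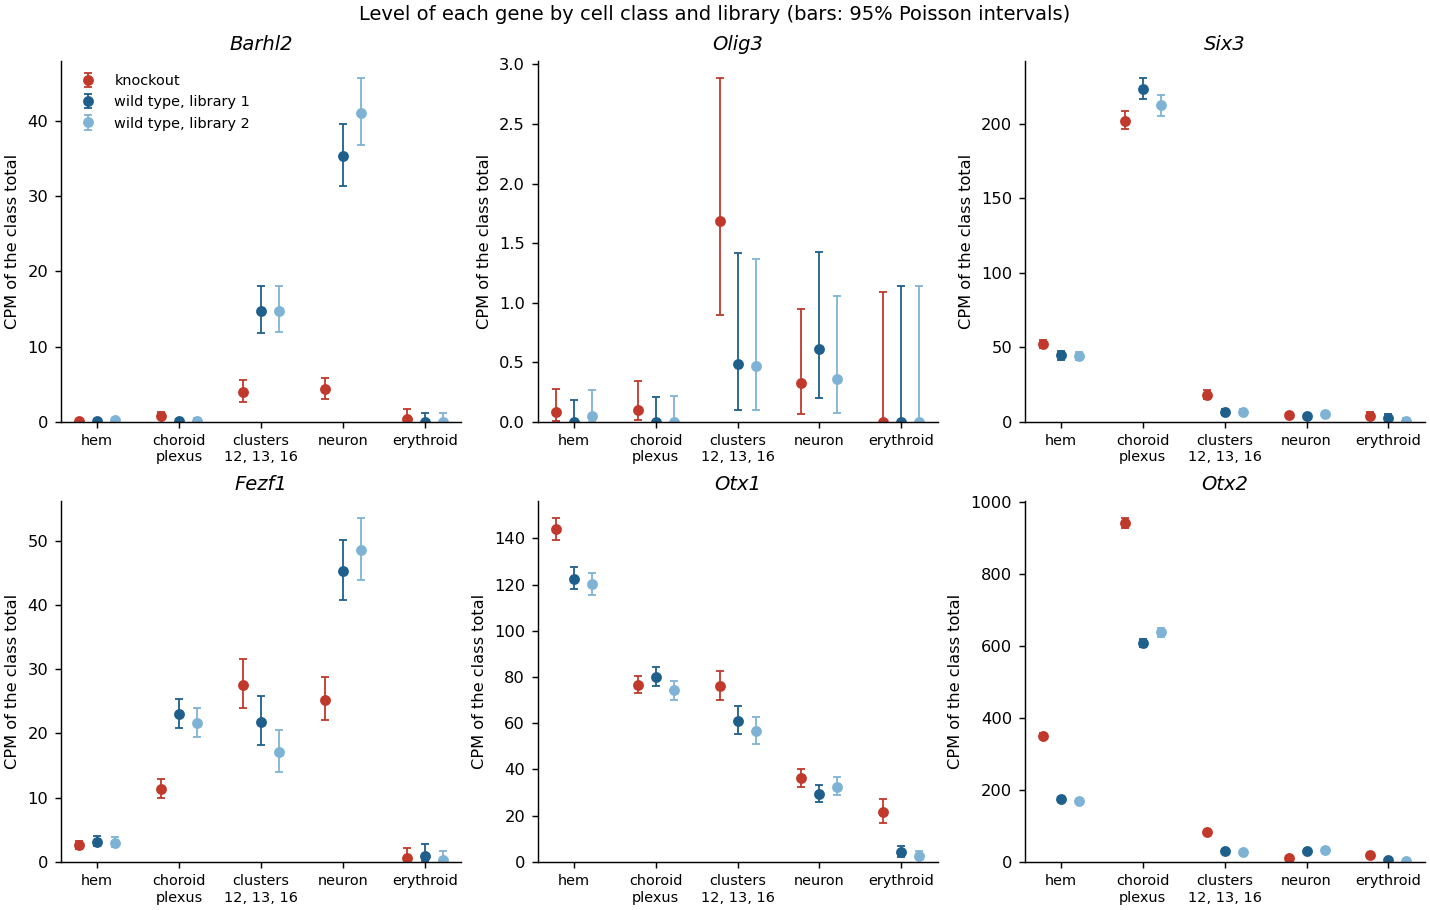
Level of each of the 6 genes (CPM of the class total, linear axes that differ between panels) in the hem, choroid plexus and neuron classes, over clusters 12, 13 and 16 together, and in erythroid cells, the red blood cell precursors, for the knockout library and then the 2 wild-type libraries. Points are sums over the cells of a class, and bars are exact 95% Poisson intervals. Otx2 in the hem class stands at 351 CPM in the knockout, above 175 and 168 CPM in the wild-type libraries, and Barhl2 in the neuron class stands at 4.30 CPM in the knockout, below 35.3 and 41.1 CPM.

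The Otx genes were the members most abundant in the hem. Otx2 had 351 CPM (344 to 358) in knockout hem cells, against 175 CPM (169 to 181) and 168 CPM (163 to 174) in wild-type ones, a log2 fold of 1.03. Against the first wild-type library alone the difference fell just short of 2-fold on the log2(CPM + 1) scale, so the gene did not meet the rule. The plain CPM values of those 2 libraries lay just over 2-fold apart. Both hem clusters showed the same order. Cluster 2 had 374 CPM of Otx2 in the knockout, against 199 and 189 CPM in the wild type, and cluster 4 had 283 CPM, against 130 and 127 CPM. The size of the difference depended on how hem cells were picked. Where a cell was called hem from at least 3 detected hem markers, with no clustering, the log2 fold was 0.41. Otx1 differed less, at 144 CPM in knockout hem cells and 123 and 120 CPM in wild-type ones, a log2 fold of 0.24.

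The share of hem cells with an Otx2 UMI was 79.2% in the knockout, against 62.0% and 63.5% in the wild type. With each cell thinned to 4000 UMIs, it was 62.1%, against 40.5% and 38.5%. That thinning left out 1227 shallower knockout cells and 175 and 219 wild-type cells over all classes. Otx1 ran in opposite orders before and after thinning. It was detected in 66.8% of knockout hem cells, against 71.4% and 72.9% of wild-type ones, and after thinning in 41.1%, against 37.2% and 35.0%, the order of the CPM levels. Red blood cell precursors, which should lack both genes, set the level that free RNA can give. In those cells Otx2 was detected in 13.8% in the knockout, against 6.15% and 2.31% in the wild-type libraries, at median depths of 15425, 15708 and 17558 UMIs, and its level was 18.9 CPM, against 4.32 and 1.23 CPM. Otx1 in the same cells was detected in 23.1%, against 6.15% and 4.62%, at 21.5 CPM, against 4.01 and 2.47 CPM. The hem levels of Otx2 lay far above that background in every library. The excess of both genes in knockout red blood cell precursors moves with the hem difference, and its part in that difference was not tested.

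Six3 was the next in the hem, at 52.2 CPM in knockout cells, against 44.6 and 44.1 CPM in wild-type cells. With hem cells picked by markers its log2 fold was -0.66, the opposite direction. It was found in 31.3% of knockout hem cells, against 29.2% and 30.5% of wild-type ones. Fezf1 was low, with 2.58 CPM in knockout hem cells and 3.15 and 3.00 CPM in the wild type. Its log2 fold was -0.19, and it was -0.93 with hem cells picked by markers and 0.57 against tdTomato cells. The diencephalic genes were all but missing from the hem. Barhl2 had 4 UMIs in all knockout hem cells and 2 and 4 in the wild-type libraries, and Olig3 had 2, against 0 and 1.

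In the choroid plexus class Otx2 was again the leading member, and Six3 joined it. Otx2 had 941 CPM in knockout choroid plexus cells, against 607 and 638 CPM in wild-type cells, a log2 fold of 0.60. Nearly every cell had it, 96.7% in the knockout and 98.2% and 98.4% in the wild type. Six3 differed little, at 202 CPM in the knockout and 224 and 212 CPM in the wild type, a log2 fold of -0.11. Six3 was detected in 70.9% of knockout cells, against 82.3% and 83.8% of wild-type ones, and after thinning to 4000 UMIs in 49.2%, against 53.8% and 49.9%. Otx1 also differed little, at 76.6 CPM in knockout cells and 80.0 and 74.2 CPM in wild-type ones.

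Fezf1 was the member that was lower in knockout choroid plexus against all wild-type cells, though not against those of the E12.5 reporter, as given with the reporters. It had 11.4 CPM there, against 23.1 and 21.6 CPM in the wild-type libraries, a log2 fold of -0.91. It was detected in 8.92% of knockout cells, against 17.5% and 16.6% of wild-type cells, and after thinning in 3.56%, against 7.73% and 7.09%. The 2 choroid clusters that hold both genotypes differed in this. Cluster 8 had 5.49 CPM of Fezf1 in the knockout, against 24.6 and 20.6 CPM, and cluster 5 had 16 CPM, against 28.8 and 29.5 CPM. A further choroid cluster, 15, held 300 and 290 wild-type cells, was led by motile cilia genes and had fewer than 10 knockout cells. Without the 1-genotype clusters the log2 fold of Fezf1 in the class was -1.09, which met the 2-fold rule. Barhl2 had 16 UMIs in knockout choroid cells, against 1 and 2 in wild-type ones, and Olig3 had 2, against 0 and 0.

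Set against the hem of the same library, the choroid plexus had more Otx2, Six3 and Fezf1 in every library, and less Otx1. The choroid plexus to hem ratio of Otx2 was 2.68 in the knockout, against 3.47 and 3.79 in the wild type. For Six3 the ratio was 3.88 in the knockout, against 5.02 and 4.82. For Fezf1 it was 4.42, against 7.33 and 7.21. The 3 ratios were thus smaller in the knockout while keeping their direction. The wild-type ratios include cluster 15, which has fewer than 10 knockout cells. The Otx1 ratio was below 1 throughout, at 0.532 in the knockout and 0.653 and 0.618 in the wild type. The order of Otx2 over Otx1 in the choroid plexus was the same in the 3 libraries, as UMIs from 3′ tags, which are not per length.

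The label of a factor outside the pallium did not describe Otx1. Otx1 was detected in 52.4% of all knockout cells and 56.2% and 56.9% of all wild-type cells, and in 29.9%, against 26.8% and 25.6%, after thinning to 4000 UMIs. Clusters 0, 1, 3 and 10, which were left unnamed and carry the pallial genes Emx1, Emx2 and Lhx2, had Otx1 at 91.5 to 129 CPM in the knockout and 64.8 to 92.8 CPM in the wild type. The same clusters had little Otx2, with cluster 0 at 10.9 CPM in the knockout, against 2.15 and 2.11 CPM in the wild type. The red blood cell precursors had 18.9 CPM, against 4.32 and 1.23 CPM, so that the Otx2 of these clusters is near the level of free RNA and is not read as expression.

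**Figure D2:**
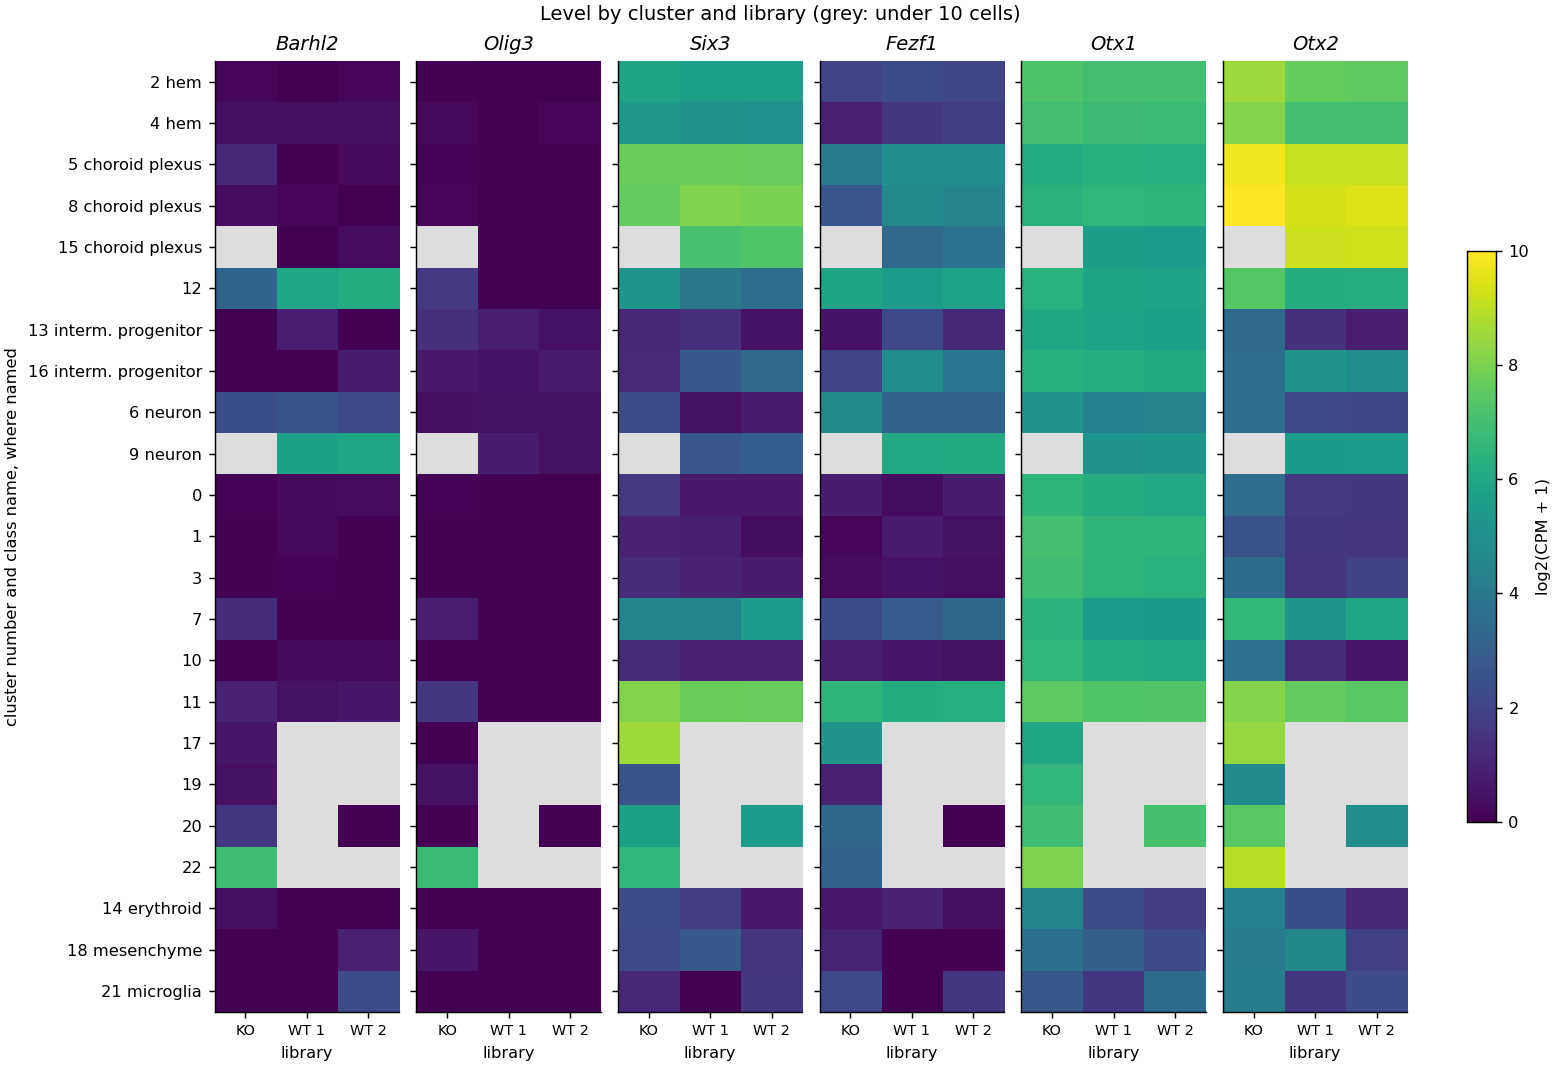
Level of the 6 genes (colour, log2(CPM + 1)) in each cluster, with the knockout left of the 2 wild-type libraries and clusters with under 10 cells in a library in grey. Barhl2 and Olig3 peak together in knockout cluster 22 at 117 and 110 CPM, Six3 and Otx2 are high in the same clusters, and Otx1 is spread over most of them.

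The diencephalic pair stood together in one knockout cluster. Cluster 22 held 115 knockout cells and fewer than 10 wild-type cells, and had 117 CPM of Barhl2 and 110 CPM of Olig3. It supplied 62.8% of all Barhl2 UMIs and 82.9% of all Olig3 UMIs of the knockout. Otx2 stood at 485 CPM there, Otx1 at 257 CPM, Six3 at 94.7 CPM and Fezf1 at 7.52 CPM. Its leading genes were Fgf15, Wnt3, Foxb1 and Megf11. Among diencephalic genes, Irx3 had 63.3 CPM and Irx5 38.2 CPM, whereas Barhl1, Gbx2 and Dbx1 had 0 UMIs. Among rostral midline genes, the growth factor Fgf8 had 279 CPM and Nkx2-1 had 0 UMIs. The hem genes Lmx1a and Wnt3a had 3.13 and 2.51 CPM. Its cells came from 1 library, and the cluster is called here by its number, since markers of more than one territory are present.

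Within cluster 22 the 2 genes were each found in most cells. Barhl2 was detected in 58.3% and Olig3 in 57.4% of the cells, with Otx2 in 88.7%, Otx1 in 85.2%, Six3 in 44.4% and Fezf1 in 3.48%. Both Barhl2 and Olig3 were detected in 43 of the 115 cells, close to the 38.5 that independent detection would give. Over the whole knockout library the count was 50 cells, against 1.11 by independence, and in the wild-type libraries 1 and 0 cells. Without the 1-genotype clusters, 5 knockout cells had both, against 0.160 by independence. Cluster 22 thus holds most of the knockout cells with both genes, and the 5 others are also more than independence gives. Without those clusters the share of cells with Barhl2 was 0.698% in the knockout, against 0.674% and 0.730% in the wild type, and that of Olig3 was 0.189%, against 0.0397% and 0.0761%.

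A second cluster of knockout cells carried Six3 and Otx2. Cluster 17 held 324 knockout cells and fewer than 10 wild-type cells, and its leading genes were Fgf17, Fgf8, Kitl, Pax5 and Fgf18. Fgf17 and Fgf8 are growth factors of the rostral midline, and they had 1242 and 476 CPM. Six3 had 380 CPM, Otx2 339 CPM, Otx1 62.5 CPM and Fezf1 35.8 CPM. It supplied 16.3% of the Six3 UMIs of the knockout. With fewer than 10 wild-type cells in each of these clusters, cells that one genotype lacks and cells that one dissection did not take cannot be told apart.

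Six3 and Fezf1 also shared a cluster that both genotypes had. Cluster 11 held 173 knockout cells and 390 and 329 wild-type cells and was left unnamed. Its Six3 level was 277 CPM in the knockout, against 215 and 203 CPM in the wild type. Fezf1 reached 93.5 CPM there in the knockout, against 72.0 and 76.0 CPM in the wild type, the highest Fezf1 levels among clusters with at least 50 cells in every library. Otx2 had 286 CPM in the knockout, against 193 and 172 CPM, and Otx1 had 185 CPM, against 157 and 159 CPM. The cluster supplied 27.8% and 29.1% of all Fezf1 UMIs of the wild-type libraries. Fewer of its cells had a Six3 UMI in the knockout, 72.8%, against 82.1% and 86.9%, which goes against the CPM, so no order is read from those shares.

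Six3 cells were nearly all Otx2 cells. Of the cells with a Six3 UMI, 89.1% in the knockout and 90.0% and 91.6% in the wild type also had Otx2. The pair was found in 2192 knockout cells and 1801 and 1627 wild-type cells, which is 2.44 times the count by independence in the knockout and 2.59 and 2.61 times in the wild type. Within single classes the excess was smaller. Within the choroid plexus class where nearly every cell has Otx2, the ratio was 1.02 in the knockout and 1 in both wild-type libraries, and within the hem class it was 1.18 in the knockout and 1.42 in both wild-type libraries. Six3 with Fezf1 was found 2.90 times as often as by independence in the knockout and 2.41 and 2.42 times in the wild type. Otx1 with Otx2 was close to independence, at 1.09 in the knockout and 1.13 and 1.17 in the wild type. Barhl2 with Otx2 was found in 95 knockout cells, against 57.3 by independence, and in 21 and 17 wild-type cells, against 71.0 and 74.4. Of those 95 cells 61 lay in cluster 22, and 12 and 7 of the wild-type cells lay in cluster 9. Without the clusters of 1 genotype the pair was found in 30 knockout cells, against 29.8, and in 9 and 9 wild-type cells, against 17.0 and 16.1. Of the 15 pairs of the 6 genes, 6 lay above independence in every library. A cell with more UMIs has more chance of showing both genes of any pair, so ratios a little above 1 are not read further.

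**Figure D3:**
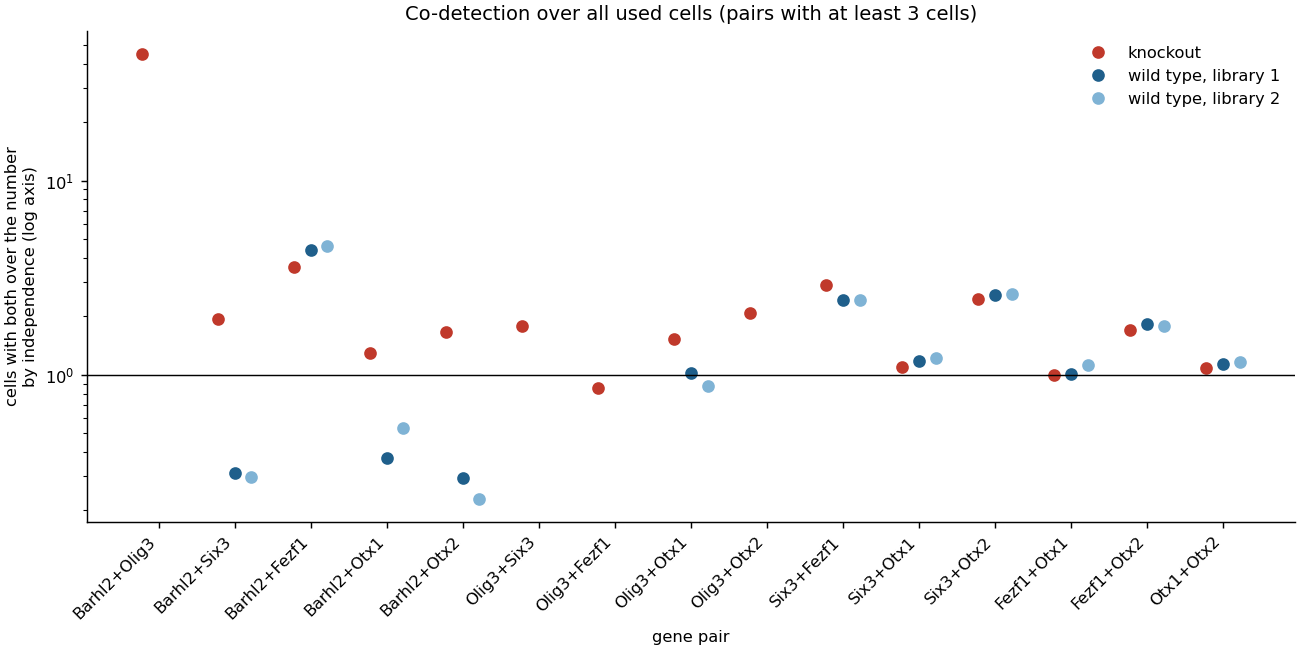
Cells with both genes of a pair over the count that independent detection would give (logarithmic axis), for the knockout and then the 2 wild-type libraries, over all cells used; a point rests on at least 3 cells with both genes. Barhl2 with Olig3 reaches 45.1 in the knockout, and Barhl2 with Otx2 lies above 1 in the knockout at 1.66 and below 1 in the wild-type libraries at 0.296 and 0.229, where clusters of 1 genotype hold many of the cells.

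The levels across clusters gave the same pairing of Six3 with Otx2. Over the 16 clusters with at least 50 cells in every library, Pearson's r of their log2(CPM + 1) levels was 0.97 in the knockout and 0.96 and 0.97 in the wild type. Clusters of one library share its depth and free RNA, so these values describe and test nothing. Six3 with Fezf1 had 0.67 in the knockout, against 0.68 and 0.76, and Otx1 with Otx2 had 0.32, against 0.35 and 0.49. Among 8608 genes, those whose lowest r over the 3 libraries was highest were, for Six3, Otx2 at 0.96, Mecom at 0.95 and Id1 at 0.92. For Otx2 they were Six3 at 0.96, Rspo2 at 0.94 and Id1 at 0.94, for Otx1 Sema5b at 0.95, Msi1 at 0.95 and Wnt8b at 0.92. For Barhl2 they were Samd3 at 0.87, Lhx1os at 0.86 and Lhx1 at 0.83, and for Fezf1 Lhx5 at 0.82, Zfp503 at 0.80 and Nsg2 at 0.79. Olig3 had 8 and 7 UMIs in the wild-type libraries, so no likeness is given for it.

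Clusters 12, 13 and 16 hold differentiating cells. Barhl2 was found almost only in cluster 12, with 30 UMIs or 8.23 CPM in the knockout, against 57.8 and 71.9 CPM in the wild type. Otx2 in that cluster went the other way, with 164 CPM in the knockout, against 72.1 and 73.5 CPM. Six3 did too, with 37.0 CPM, against 14.9 and 10.8 CPM. Cluster 12 had 576 knockout cells and 169 and 134 wild-type cells. In cluster 16, with 157 knockout cells and 152 and 168 wild-type cells, Otx2 had 11.4 CPM in the knockout, against 34.7 and 27.1 CPM, the opposite order to cluster 12. Over the 3 clusters together Otx2 had 82.9 CPM in the knockout, against 30.5 and 26.2 CPM, a log2 fold of 1.51. That call was lost with doublets kept, at 0.23, and against tdTomato cells, at 0.97, and at Leiden resolution 0.5 the direction turned, at -1.46. Barhl2 over the 3 clusters had 3.89 CPM in the knockout, against 14.7 and 14.8 CPM, under the 20 CPM minimum of the rule. The 49 and 44 wild-type tdTomato cells of these clusters had 2 and 0 UMIs of Barhl2, too few to set a direction against them (log2 fold 0.80).

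In the neuron class Barhl2 had 4.30 CPM in the knockout, against 35.3 and 41.1 CPM in the wild type. The log2 fold was -2.89, or 8.89-fold lower with a counting interval of 6.45 to 12.6. Otx2 had 11.2 CPM, against 29.2 and 31.6 CPM, a log2 fold of -1.37. Fezf1 had 25.3 CPM, against 45.4 and 48.6 CPM, while Otx1 differed little, at 36.2 CPM, against 29.3 and 32.5 CPM. Different clusters hold this class in the 2 genotypes. The knockout neurons were 981 cells of cluster 6 and 2 cells of cluster 9, whereas the wild-type ones were 266 and 245 cells of cluster 6 and 665 and 617 of cluster 9, which carries the Cajal-Retzius markers. The log2 fold of Otx2 was 0.65 with doublets kept and at Leiden resolution 0.5, and that of Fezf1 was -0.16 against tdTomato cells. Within cluster 6 Barhl2 was level, at 4.31 CPM in the knockout and 4.95 and 3.64 CPM in the wild type. Otx2 had 11.2 CPM there in the knockout, against 3.53 and 3.27 CPM. The red blood cell precursors had 18.9 CPM of Otx2, against 4.32 and 1.23 CPM. These Otx2 levels of cluster 6 are thus near the level of free RNA, and their order is not read as expression. Fezf1 was higher in knockout cells of cluster 6, at 25.2 CPM, against 7.77 and 7.64 CPM. The lower Barhl2 and Otx2 of knockout neurons as a class were therefore not present within cluster 6 and moved with the near absence of cluster 9.

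A set of cells chosen after the values were seen gave a second view. Cells of clusters 6, 9 and 12 with at least 3 of the Cajal-Retzius markers Reln, Nhlh2, Ebf2, Ebf3 and Calb2 numbered 907 in the knockout and 640 and 612 in the wild type. Of the knockout cells 734 came from cluster 6 and 173 from cluster 12. Of the wild-type cells 427 and 421 came from cluster 9. Barhl2 had 45 UMIs in those knockout cells (3.65 to 6.69 CPM), against 41.6 and 55.2 CPM in the wild-type cells. The set held 0 knockout cells of cluster 9, so this difference cannot be told apart from the difference in clusters. Otx2 was close, at 27.1 CPM in the knockout, against 23.7 and 20.9 CPM. Its knockout value sums cells of clusters 6 and 12, which as whole clusters had 11.2 and 164 CPM of Otx2 in the knockout. Trp73 had 0.111 CPM, against 231 and 238 CPM, while Gmnc was level at 117 CPM, against 122 and 117 CPM.

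Cluster 9 of the wild type, the Cajal-Retzius cluster, held 70.0% and 73.1% of the Barhl2 UMIs of its libraries. Barhl2 had 51.4 and 59.6 CPM in it, Fezf1 65.2 and 68.8 CPM, Otx2 42.8 and 45.6 CPM and Otx1 35.0 and 38.3 CPM. Barhl2 was detected in 153 of the 665 cells and 163 of the 617, and Otx2 in 150 and 134. The 2 were seldom found in one cell. Both were detected in 12 and 7 cells, against 34.5 and 35.4 by independence, and with each cell thinned to 4000 UMIs in 2 and 2 cells, against 13.7 and 12.2. Barhl2 with Fezf1 went the other way, with 66 and 75 cells, against 46.0 and 50.5. Cluster 12 had the same order of signs. Barhl2 with Otx2 was found there in 3 knockout cells, against 9.51 by independence, and in 4 and 2 wild-type cells, against 7.19 and 7.34. Barhl2 with Fezf1 was found in 14 knockout cells, against 4.32, and in 11 and 13 wild-type cells, against 5.59 and 6.27.

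Those cells of cluster 9 were then set side by side, 141 and 156 cells with Barhl2 and no Otx2 and 138 and 127 cells with Otx2 and no Barhl2. Their median depths were alike, at 7529 and 9062 UMIs for the Barhl2 cells and 7838 and 8967 UMIs for the Otx2 cells. The cells were picked by these 2 genes and share their libraries, so the folds describe them and test nothing. Of the 44 genes of the 5 lists used here, 15 were abundant enough in them, 3 were at least 2-fold higher in the Barhl2 cells in both libraries and 4 lower. Over 6797 abundant genes 10.3% met that rule, 7.06% higher and 3.27% lower. The median log2 fold of the list genes was 0.29, against -0.01 for all genes.

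The higher genes of the lists were LIM homeobox genes, and each came from a different list. Lhx5 had 153 and 130 CPM in Barhl2 cells, against 42.0 and 61.0 CPM in Otx2 cells. Lhx2, a selector of cortical identity, had 1098 and 1011 CPM, against 498 and 488 CPM, and Lhx9 576 and 645 CPM, against 283 and 285 CPM. Lhx2 was the only abundant gene of the pallial list past 2-fold, and Lhx9 is on the diencephalic list. The lower genes included the Iroquois genes of the diencephalon. Irx5 had 2.72 and 5.76 CPM in Barhl2 cells, against 132 and 117 CPM in Otx2 cells, and Irx3 had 0 and 1 UMI, against 42.9 and 39.0 CPM. Tcf7l2, a Wnt pathway effector, had 3.62 and 7.92 CPM, against 34.8 and 41.5 CPM. Irx3, Irx5 and Tcf7l2 are on the same diencephalic list as Lhx9, so genes of that list went both ways.

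Markers outside the lists, chosen after their values were seen, also differed between these cells. Gmnc had 37.1 and 61.2 CPM in Barhl2 cells, against 498 and 475 CPM in Otx2 cells, with 237 and 219 CPM in cells that had neither. Lmx1a, a hem gene, had 18.1 and 23.7 CPM, against 91.1 and 92.4 CPM. Reln, which encodes the secreted Reelin of Cajal-Retzius neurons, had 253 and 222 CPM in Barhl2 cells, against 80.4 and 69.5 CPM in Otx2 cells. Trp73 was level, at 348 and 366 CPM, against 344 and 376 CPM. Fezf1 had 85.2 and 95.7 CPM in Barhl2 cells, against 66.1 and 44.1 CPM, and Otx1 26.3 and 36.7 CPM, against 47.3 and 49.2 CPM.

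**Figure D4:**
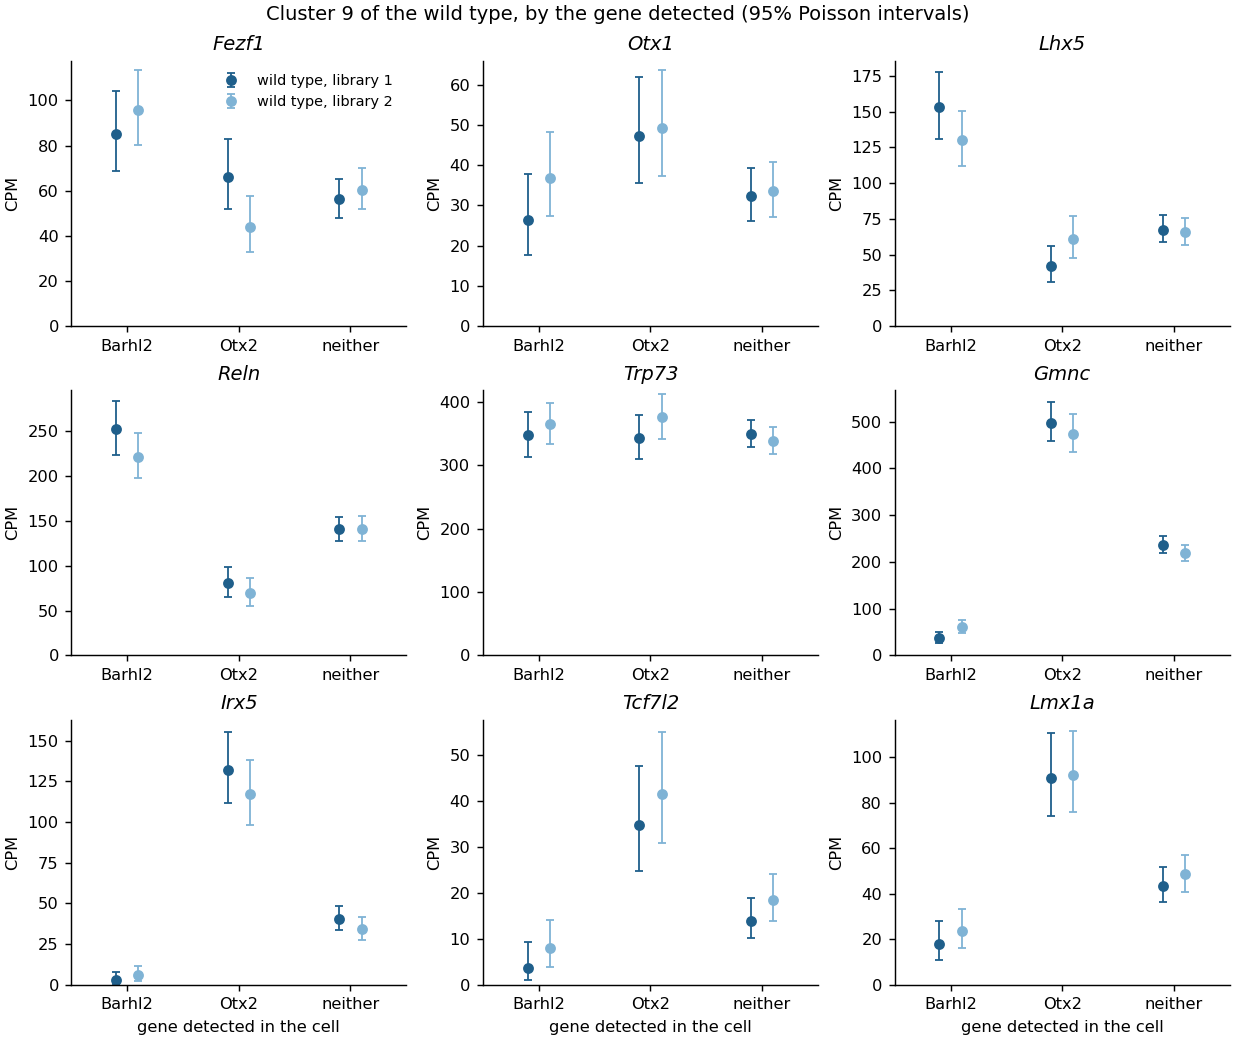
Level of 9 genes (CPM, linear axes that differ between panels) in wild-type cells of cluster 9 with Barhl2 and no Otx2, with Otx2 and no Barhl2, and with neither, for both wild-type libraries, with exact 95% Poisson intervals. Gmnc, Irx5, Tcf7l2 and Lmx1a are lower and Reln and Lhx5 higher in the Barhl2 cells, and Trp73 is level over all points drawn, at 338 to 376 CPM. The knockout has 2 cells in this cluster and is not drawn.

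Genes of other lists for the same territories were read by the same rule, with the shares of all genes called in each class given above. Of 13 diencephalic genes, 2 were abundant enough in the choroid plexus class, where 2.74% of all genes were lower, and 1 was lower in the knockout by the 2-fold rule, Irx5 with 7.82 CPM, against 23.1 and 27.4 CPM. Irx5 was lower in the neuron class too, at 0.753 CPM, against 33.6 and 29.8 CPM, where cluster 9 is missing from the knockout. Of 11 genes of the rostral midline, septum and hypothalamus, 3 were abundant enough over all cells, and 1 was higher. That gene was Fgf17, at 40.4 CPM, against 6.17 and 4.60 CPM, and it led cluster 17. Of 9 pallial genes, 7 were abundant enough in the choroid plexus class, where Lhx2 was lower at 29.1 CPM, against 60.2 and 59.3 CPM, and all 9 in the neuron class, where Pax6 was higher at 123 CPM, against 56.4 and 50.3 CPM. The pallial genes were the one list with most members abundant enough, and their median log2 fold was -0.25 over all cells and -0.22 in clusters 12, 13 and 16 together, against -0.08 for all abundant genes in both. It was -0.08 in the hem, -0.11 in the choroid plexus and -0.17 in neurons, against -0.03, -0.09 and -0.15. In the hem class and in clusters 12, 13 and 16 together 0 of the list genes met the rule. Of 9 paralogs of the 6 genes, Fezf2 was the one abundant enough in each class, and it did not meet the rule in any.

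The wild type holds 2 stages that its reporters partly separate, since tdTomato marks the hem lineage of the E12.5 embryos and YFP the cells of the E11.5 embryos. Stage and lineage cannot be told apart in this split. In the hem class Otx2 had 157 and 147 CPM in tdTomato cells, against 184 and 176 CPM in YFP cells. Six3 had 30.9 and 27.9 CPM, against 49.7 and 46.3 CPM, and Otx1 122 and 113 CPM, against 124 and 120 CPM. Set against the tdTomato cells alone, which come from embryos of the stage of the knockout, Otx2 in hem cells had a log2 fold of 1.20 in the knockout and met the 2-fold rule. In choroid plexus cells Fezf1 had 16.7 CPM (11.9 to 22.7) and 9.87 CPM (6.33 to 14.7) in tdTomato cells, from 40 and 24 UMIs, against 26.6 and 25.0 CPM in YFP cells. The knockout, at 11.4 CPM, lay between the tdTomato values of the 2 libraries, so no difference of Fezf1 in the choroid plexus was detectable against tdTomato cells, with a log2 fold of -0.20. Barhl2 in neurons was at 46.4 and 31.8 CPM in tdTomato cells, against 32.6 and 44.8 CPM in YFP cells.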

How the data were processed

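The authors deposited UMI counts per gene and cell as filtered 10x matrices, 1 per library, aligned to mm10. Cell Ranger 3.1.0 is named per the submitters' processing notes, whereas 6.0.0 stands for the knockout per the file headers. Totals were 259403297 counts in the knockout and 148073906 and 139978761 in the wild-type libraries. Cells below 1000 genes or 2000 UMIs, or above 10% mitochondrial UMIs, were dropped. The share of cells removed as doublets was set beforehand at 0.8% per 1000 barcodes of a library, and likeness to simulated doublets ranked the cells. That removed 16.2% of knockout cells and 9.94% and 8.32% of wild-type cells, which are not measured doublet rates. Cells of all libraries were clustered together on 2000 variable genes, 40 components and 20 neighbours (Leiden resolution 1; Python 3.11.15, numpy 2.4.6, scipy 1.17.1, igraph 0.11.9, leidenalg 0.10.2). Before the components were taken, each gene was centred and scaled within each genotype separately, which bears on which cells share a cluster. Counts were summed per library and class and divided by the class total (CPM), with exact Poisson intervals, and shares had exact binomial ones. The script was tested on simulated data. The genes and lists were chosen with earlier results of these data known. All 6 genes are named, and from each list up to 4 genes with the largest fold. Alternatives covered scaling, pseudocount, depth minimum, filters, doublets, clustering resolution, marker gates, wild-type subsets and single libraries. Some results of the lists are not reported here.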

Additional observations from a re-analysis of the deposited data

Results flagged for a closer look

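Otx2 differed between the genotypes in opposite directions in different classes. Its log2 fold of the knockout over the wild type was 1.03 in hem cells, 0.60 in choroid plexus cells and 1.51 over clusters 12, 13 and 16 together, but -1.37 in neurons. The value over clusters 12, 13 and 16 was 0.23 with doublets kept, 0.97 against tdTomato cells and -1.46 at Leiden resolution 0.5. The neuron value was 0.65 with doublets kept and at Leiden resolution 0.5, and 1.47 without the clusters of 1 genotype. That last value rests on cluster 6, where Otx2 was near the level of free RNA. The hem value was 0.41 with hem cells picked by markers. The difference between the classes was not tested, since each genotype is 1 suspension. Beside the neuron value stands that different clusters hold the class, with 2 knockout cells in the cluster that has 665 and 617 wild-type cells.

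Six3os1, the antisense neighbour of Six3, had 11452 UMIs in the knockout cells. The feature is listed only for the knockout library, so it has no wild-type value and was used in no comparison.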

How the results depend on the processing

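Of 402 values of single genes under other settings, 314 stayed within their error and side, 82 moved and 6 were counted as reversed. That last number does not count every change of sign. Six3 in the hem also changed sign with marker gates. Against tdTomato cells, Fezf1 in the hem and Barhl2 over clusters 12, 13 and 16 did so too. In neurons Otx2 turned positive with doublets kept (0.65), at Leiden resolution 0.5 (0.65), without the clusters of 1 genotype (1.47) and in the Cajal-Retzius marker set (0.27), and Barhl2 was 0.00 without the clusters of 1 genotype. The value of 1.47 rests on cluster 6, where Otx2 was near the level of free RNA. Over clusters 12, 13 and 16 (the intermediate progenitor class at other resolutions) Otx2 was -1.46 at Leiden resolution 0.5. The cause was not tested. Members called over all cells were 1 with no minimum depth (Olig3). In the hem they were 0 to 1 leaving out a wild-type library (Otx2, without replicate 1), 1 against tdTomato cells and 1 without shared barcodes. In the choroid plexus they were 1 with marker gates and 1 without the clusters of 1 genotype (Fezf1 each). Over clusters 12, 13 and 16 they were 3 with no minimum depth, 0 with doublets kept, 2 at Leiden resolution 0.5 and 0 against tdTomato cells. In neurons they were 1 with doublets kept, at Leiden resolution 0.5 and 2, without the clusters of 1 genotype and in the Cajal-Retzius set. Without the clusters of 1 genotype, which leaves cluster 6, that gene was Fezf1. It was higher in the knockout, at 25.2 CPM, against 7.77 and 7.64 CPM, the opposite direction to its value in the whole class. In the Cajal-Retzius set the called gene was Barhl2, lower in the knockout. Pairs above independence were 7 with doublets kept, with at least 2 UMIs per gene and without the clusters of 1 genotype. With marker gates the log2 fold of Otx2 was 0.41 in the hem and 0.30 in the choroid plexus, and that of Six3 in the hem was -0.66. The tests without clusters of 1 genotype, without shared barcodes, with the Cajal-Retzius set and the thinned co-detection in cluster 9 were chosen after seeing the data. Another scaling moved the median of all genes by over 0.1 only in neurons (0.14 and 0.12, log2). No paired analysis was possible because the knockout is 1 library and shares 1 replicate number with the wild type. Barhl2 and Olig3 in hem and choroid plexus cells rest on a few UMIs, which limits any comparison of them.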
